A study of Mus musculus with 6 samples.

Results

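Cytosolic ribosomal protein genes were examined in RNA-seq libraries of mouse acute myeloid leukemia with and without Ddit4. Members were taken by gene symbol, namely Rpsa, Rplp0 to Rplp2, and every Rpl or Rps followed by a number and at most 1 of the letters a, l and x, which left out rows named -ps and the ribosomal S6 kinases. This gave 83 of the 55421 genes in the count table, of which 81 had enough counts to be tested. Of the 83, 80 are annotated as protein coding and 3 (Rpl6l, Rpl32l and Rps4l) as pseudogenes. Both groups carried AE9a, a truncated version of the leukemia fusion AML1-ETO, delivered by retrovirus to c-Kit+ stem and progenitor cells from the bone marrow of C57BL/6 donors. Donors had either intact Ddit4 (AE9a-Ddit4+/+, 3 libraries, called wild type) or a knockout of it (AE9a-Ddit4-/-, 3 libraries, called knockout). Transduced cells, marked by GFP, were transplanted into irradiated recipients, and the sequenced RNA came from bone marrow leukemia cells, which the labels describe as kept in culture medium with serum. The bone marrow was that of transplanted mice, n = 3 in each group by the description of the experiment. Whether these mice carried separate primary leukemias or cells passed on from the same one, and whether cells were sorted before RNA extraction, is not stated, so p-values measure only the spread between these libraries.

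A ribosome joins a small and a large subunit, each built from ribosomal RNA and a large set of ribosomal proteins that are needed in nearly equal numbers. Their mRNAs begin with a terminal oligopyrimidine (TOP) tract, a run of C and T letters at the transcript's first bases. When mTORC1 is inhibited, LARP1 and the eIF4E-binding proteins hold these mRNAs back from translation, and Ddit4 encodes a stress-induced inhibitor of mTORC1. Blood formation is sensitive to the supply of ribosomal proteins: loss of a copy of several of these genes causes Diamond-Blackfan anemia, and some are deleted or mutated in blood cancers. An RNA-seq count measures the amount of each mRNA and not its translation.

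Library totals ran from 62141558 to 72717681 counts. Ddit4 itself stood at 228, 161 and 342 CPM (counts scaled by TMM to a common library total) in wild-type libraries 1 to 3 and at 84.9, 77.7 and 85.9 CPM in knockout libraries 1 to 3. It was lower in all 3 knockout libraries (log2 fold change -1.56, SE 0.28, adjusted p = 0.00635 by edgeR's quasi-likelihood test), although transcripts were still counted. Mitochondrially encoded genes took 6.17% ± 1.52 of wild-type and 13.3% ± 2.75 of knockout counts (SD, n = 3 each). The Y-linked Ddx3y was at 88.2 CPM or more in every knockout library and at most 0.0774 CPM in every wild-type library, so sex and genotype cannot be told apart. Xist, which is expressed by female cells, was at 1032, 566 and 884 CPM in wild type and still at 63.2, 20.3 and 129 CPM in knockout, so a lower Xist signal was present beside Ddx3y there. Marker lists of blood and stromal cells also moved with genotype. All 10 erythroid markers were lower in knockout, with a summed level of 6196 to 13673 CPM in wild-type and 370 to 924 CPM in knockout libraries, and 5 of 9 neutrophil markers were lower. Markers of megakaryocytes (5 of 6), B cells (6 of 6), T and NK cells (7 of 8), and stroma and endothelium (4 of 7) were higher. So were Kit, Cd34, Runx1t1 and Ptprc (4 of 4), listed for leukemic progenitors, though Ptprc is carried by white blood cells in general. The summed level of these 4 genes was 95.6 to 223 CPM in wild-type and 1456 to 1887 CPM in knockout libraries. The 6 monocyte and macrophage markers did not pass. Of all 18375 genes tested, 10.7% were lower and 19.4% were higher at an adjusted p below 0.05. In bulk RNA a smaller number of cells of one type and less RNA in each cell cannot be told apart. The part of these shifts in the results on ribosomal protein genes was not tested.

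Ribosomal protein mRNAs took a smaller share of the transcriptome in knockout libraries. They made up 7.13%, 6.78% and 7.68% of all counts in wild-type libraries 1, 2 and 3, and 4.50%, 4.49% and 4.92% in knockout libraries 1, 2 and 3. The groups did not overlap, with means of 7.20% ± 0.454 and 4.64% ± 0.248 (SD, n = 3 each). With mitochondrially encoded genes left out of the total, the shares were 7.55%, 7.36% and 8.09% against 5.07%, 5.37% and 5.61%, so the gap was also present among the remaining counts. An exact permutation test on 3 against 3 libraries cannot give a p below 0.1.

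**Figure D1:**
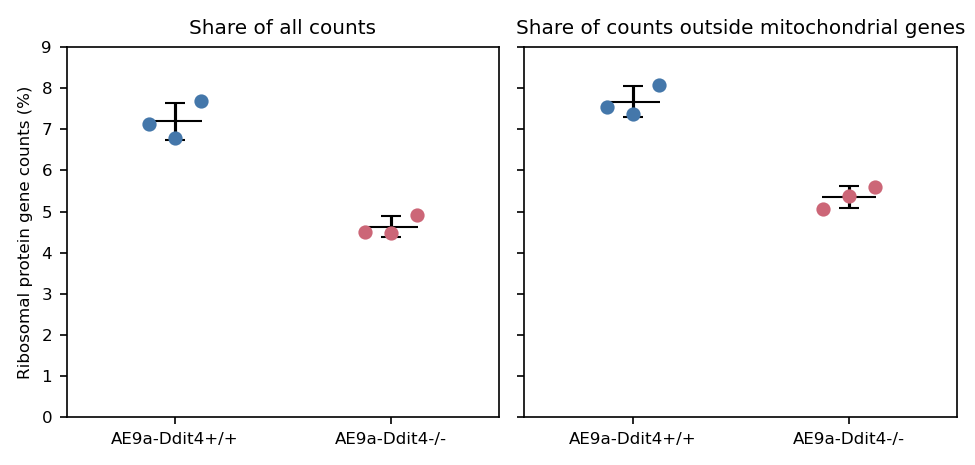
Share of sequenced counts taken by the cytosolic ribosomal protein genes, as a percent of all counts (left) and of counts outside mitochondrially encoded genes (right). Points are libraries, and the black marks give the mean and SD of 3 libraries; wild-type libraries sit between 6.78% and 7.68% on the left, above all knockout libraries at 4.49% to 4.92%.

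Gene by gene, the decrease was wide but not uniform. Of the 81 members tested, 34 were lower in knockout at an adjusted p below 0.05 (42.0% of members, against 10.7% of all 18375 genes tested), 1 was higher (against 19.4% of all genes) and 46 did not pass. Fold changes were negative for 77 members. The median over all 81 was -0.57 on the log2 scale (interquartile range -0.68 to -0.32), beside a median of 0.04 over all genes tested. Genes of like abundance had a median under 0 themselves: the 482 other genes above an average log2 CPM of 8 had a median of -0.15, and 18.0% of them were lower. For 62 members every knockout library was below every wild-type library (76.5%, against 22.2% of all genes), for 2 the order was the opposite, and for 17 the groups overlapped. Of the 46 members that did not pass, 28 still had every knockout library below every wild-type library. Single libraries weighed on the number of calls, which was 15 without wild-type library 1, 34 without wild-type library 2 and 12 without wild-type library 3, and 15, 18 and 17 without knockout library 1, 2 or 3. The median stayed between -0.61 and -0.47 in these fits.

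The wild-type libraries did not agree fully among themselves. Taking for each of the 78 members above an average log2 CPM of 4 its level relative to the wild-type mean, the median was 0.04, -0.14 and 0.07 on the log2 scale in wild-type libraries 1 to 3. It was -0.61, -0.48 and -0.50 in knockout libraries 1 to 3. Wild-type library 2 thus lay lowest of its group, with 75 of 78 members under the group mean, and still above each knockout library. The coefficient of variation of a member among 3 libraries had a median of 9.82% in wild type and 7.28% in knockout.

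**Figure D2:**
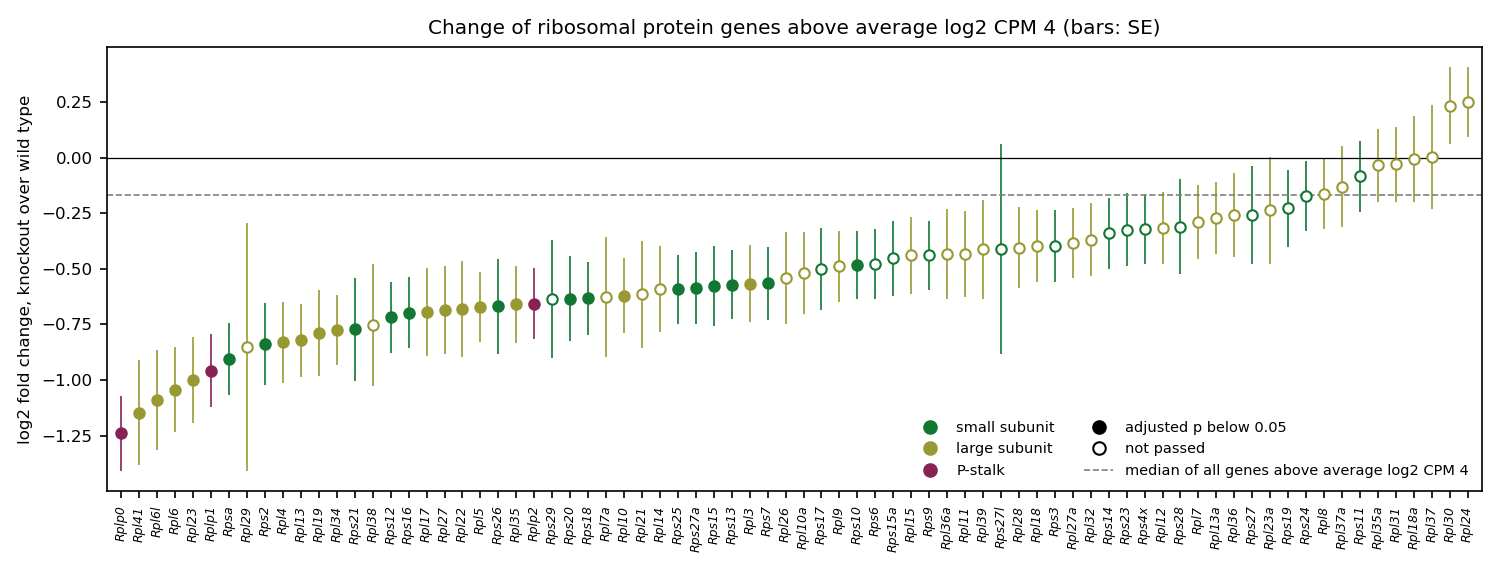
Log2 fold change (knockout over wild type) of the ribosomal protein genes reported here that are above an average log2 CPM of 4, in rising order, with the SE as bars and the subunit as color; filled points passed an adjusted p of 0.05. The order runs from Rplp0 at -1.24 to Rpl24 at 0.25, and the dashed line marks the median of all genes above the same level, -0.17.

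All 3 genes of the P-stalk of the large subunit were lower in knockout (beside 10.7% of all genes), with Rplp0 the lowest of the members called. Rplp0 encodes its base, which anchors dimers of the proteins from Rplp1 and Rplp2, and the stalk calls translation factors to the ribosome. Rplp0 (ENSMUSG00000067274, chr5:115559467-115563727, GRCm38, plus strand) was at 5795, 5045 and 5803 CPM in wild-type libraries 1, 2 and 3 and at 2235, 2457 and 2355 CPM in knockout libraries 1, 2 and 3. The groups lay far apart, and the fold change of -1.24 (SE 0.17, adjusted p = 0.00206, edgeR) was a 2.36-fold decrease. Rplp1 went from 1236, 1113 and 1304 CPM to 588, 640 and 653 CPM (log2 fold change -0.96, SE 0.16, adjusted p = 0.00505, edgeR). Rplp2 went from 614, 562 and 662 CPM to 397, 392 and 378 CPM (-0.66, SE 0.16, adjusted p = 0.0190, edgeR). Each of the stalk genes kept its groups apart.

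Among the other 46 tested large subunit members, 15 were lower (32.6%, beside 10.7% of all genes) and 1 was higher (beside 19.4% of all genes). The median log2 fold change was -0.50. These members include Rpl6l and Rpl32l, annotated as pseudogenes, and the higher one was the sparsely counted paralog Rpl3l. Rpl6 (ENSMUSG00000029614, chr5:121204481-121209241, GRCm38, plus strand), which encodes one of the larger proteins of the subunit, was at 2183, 1636 and 1954 CPM in wild type and 826, 977 and 999 CPM in knockout (-1.04, SE 0.19, adjusted p = 0.00616, edgeR). Its relative Rpl6l, annotated as a pseudogene and able to share reads with it, fell as well, by 1.09 on the log2 scale. Rpl41, whose product is a very short peptide between the subunits, was at 608, 442 and 590 CPM in wild type and 183, 266 and 291 CPM in knockout (-1.15, SE 0.24, adjusted p = 0.0102, edgeR). Rpl23, which encodes a protein that also binds the p53 inhibitor Mdm2, was at 741, 613 and 788 CPM against 302, 370 and 399 CPM (-0.9999, SE 0.19, adjusted p = 0.00766, edgeR). In each of these genes the lowest knockout value was that of library 1. Rpl4, Rpl13, Rpl19 and Rpl34 had log2 fold changes of -0.83 to -0.78, each past the threshold, with groups that did not overlap. The other members of this subunit called lower were Rpl3, Rpl5, Rpl10, Rpl17, Rpl22, Rpl27 and Rpl35, at log2 fold changes of -0.69 to -0.57. Not all of the subunit moved this way. Rpl8, one of the 5 members that took the most counts, stood at 1821, 1737 and 1833 CPM in wild type and 1566, 1628 and 1616 CPM in knockout, and its change of -0.16 on the log2 scale missed the threshold (SE 0.16, adjusted p = 0.463, edgeR).

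Of the 32 small subunit members, 16 were lower (50%, beside 10.7% of all genes). All 32 fold changes were negative, with a median of -0.57. The 32 include Rps4l, annotated as a pseudogene and sparsely counted. Rpsa, whose product is also known as the laminin receptor, was at 3589, 3372 and 3724 CPM in wild type and 1780, 1926 and 1996 CPM in knockout (log2 fold change -0.91, SE 0.16, adjusted p = 0.00597, edgeR). Rps2, which encodes a protein near the mRNA entry channel, was at 2063, 1616 and 1670 CPM against 895, 1088 and 1009 CPM (-0.84, SE 0.18, adjusted p = 0.0127, edgeR). Rps27a, made as a fusion of ubiquitin and a ribosomal protein, went from 739, 850 and 795 CPM to 515, 502 and 569 CPM (-0.59, SE 0.16, adjusted p = 0.0304, edgeR). These 3 genes had no overlap between the groups. Others called lower included Rps7, Rps10, Rps12, Rps13, Rps15, Rps16, Rps18, Rps20, Rps21, Rps25 and Rps26, at log2 fold changes of -0.77 to -0.48. Rps6 encodes the protein phosphorylated by S6 kinases downstream of mTORC1. Its knockout libraries, at 1372, 1517 and 1421 CPM, all lay under the wild-type libraries at 1954, 1959 and 2090 CPM, yet the fold change of -0.48 (SE 0.16) missed the threshold at an adjusted p of 0.0563 (edgeR). It ranged from 0.0162 to 0.157 over the alternative settings.

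**Figure D3:**
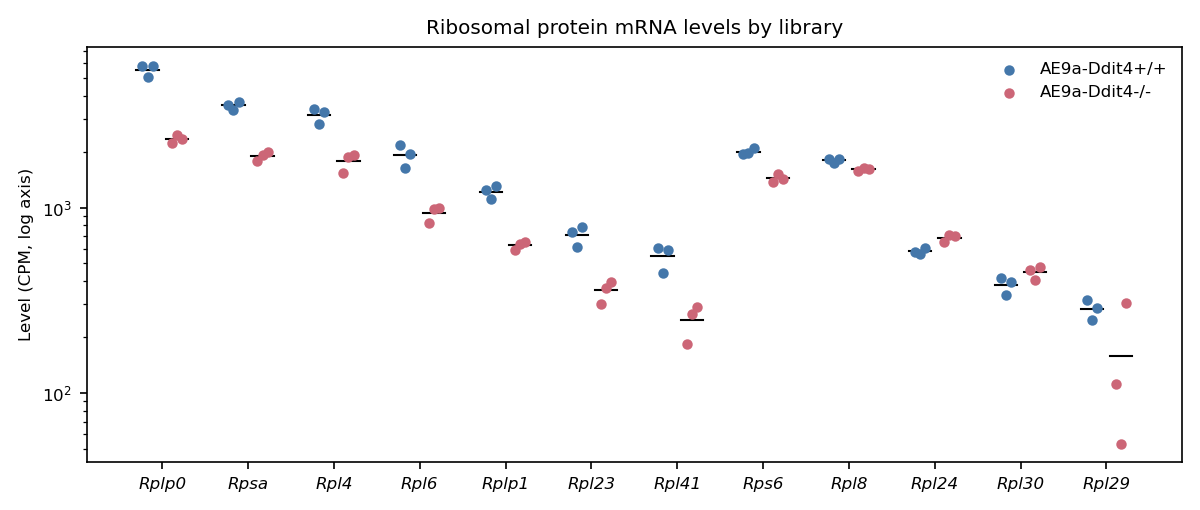
Levels of 12 ribosomal protein genes in each library, in CPM on a log axis, with wild-type libraries in blue, knockout libraries in red and group means as black lines. From Rplp0 to Rps6 the knockout points sit below the wild-type points; Rpl8 shows a small gap, Rpl24 the opposite order, Rpl30 overlapping groups and Rpl29 a wide spread among knockout libraries.

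A small set of members stood apart from the decrease; these were singled out after their values were seen, unless they belong to a list named here. Rpl24 (ENSMUSG00000098274, chr16:55966275-55971435, GRCm38, plus strand), which encodes a protein of a bridge between the subunits, was at 574, 562 and 602 CPM in wild type and at 650, 713 and 703 CPM in knockout. All knockout libraries were above all wild-type libraries, and the change of 0.25 on the log2 scale missed the threshold (SE 0.16, adjusted p = 0.264, edgeR). Rpl30 was at 418, 336 and 395 CPM against 463, 408 and 479 CPM, and its groups overlapped. Rpl31, Rpl35a and Rpl37 had log2 fold changes of -0.03, -0.03 and 0.00, and the sign of each turned under at least one other scaling or filter. Rpl29 had the widest spread among knockout libraries of any well-counted member, at 112, 53.4 and 307 CPM beside 318, 248 and 286 CPM in wild type, so that knockout library 3 lay inside the wild-type range.

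Tissue-restricted or inducible paralogs of the members gave few counts, except Rps27l, a target of p53. Rpl3l, the muscle-restricted paralog of Rpl3, was the only member called higher. It had 39, 11 and 17 counts in wild-type and 170, 104 and 113 counts in knockout libraries, with all knockout libraries above all wild-type ones (log2 fold change 2.52, SE 0.63, adjusted p = 0.0220, edgeR). One of its wild-type values lies under 12 counts, the limit of detection used here, and the call was lost without wild-type library 3 or knockout library 1. Rps27l varied within both groups, from 37.3 to 91.9 CPM in wild type and from 21.7 to 68.0 CPM in knockout, and gave no call. Rps4l had 29 to 105 counts in wild type and 8 to 37 counts in knockout, with overlapping groups. Rpl10l and Rpl39l, which are expressed in testis, were not tested: Rpl10l had 0 counts in every library and Rpl39l at most 9, under the limit of 12 counts (0.165 to 0.193 CPM, for counting error only).

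Members tied to blood disease were in part among those called lower. Of 21 genes mutated in Diamond-Blackfan anemia, 7 were lower (Rpl5, Rpl27, Rpl35, Rps7, Rps10, Rps20 and Rps26), or 33.3% beside 42.0% of all members and 10.7% of all genes. Rps10 and Rps26 lost the call with DESeq2 size factors in edgeR (adjusted p = 0.0549 and 0.0598). All 21 fold changes of the list were negative, with a median of -0.48, beside -0.57 for all members. Rps19, the gene most often mutated in this anemia, was at 829, 839 and 921 CPM in wild type and 787, 791 and 634 CPM in knockout (log2 fold change -0.23, SE 0.17, adjusted p = 0.358, edgeR). Of 6 genes lost or mutated in blood cancers, 4 were lower (66.7%, beside 42.0% of all members). In all 6 every knockout library was below every wild-type library (beside 76.5% of members and 22.2% of all genes). Rpl5, which with Rpl11 holds a small ribosomal RNA and can bind Mdm2, was at 1455, 1320 and 1436 CPM against 844, 900 and 897 CPM (-0.67, SE 0.16, adjusted p = 0.0167, edgeR). Rpl22, found deleted in T cell leukemias, was at 243, 167 and 223 CPM against 109, 150 and 135 CPM (-0.68, SE 0.21, adjusted p = 0.0478, edgeR). Rpl10 and Rps15, recurrently mutated in lymphoid leukemias, fell by 0.62 and 0.58 on the log2 scale. Rpl22 and Rps15 missed the threshold with DESeq2 size factors in edgeR (adjusted p = 0.0577 and 0.0555). Rpl11 (-0.43, adjusted p = 0.130) and Rps14, whose loss marks a form of myelodysplastic syndrome (-0.34, adjusted p = 0.150), did not pass the edgeR test.

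Position moved with the size of the change. The 9 members on chromosomes 1, 15 and 16 centered on a log2 fold change of -0.03 (median), and 1 of them was lower (Rpl3), whereas the 69 members above an average log2 CPM of 4 on the other chromosomes had a median of -0.59, with 33 lower. Other genes above the same level shifted with their chromosome too: for chromosomes 1, 15 and 16 their medians were 0.24, 0.40 and 0.25, and for chromosome 5 it was -0.44. Chromosome 5 carries Rplp0, Rpl6, Rpl5, Rpl9 and Rpl21. Chromosomes 1, 15 and 16 were picked after their values were known. Measured from the median of the other genes on their own chromosome, the members had a median of -0.37 on chromosomes 1, 15 and 16 and of -0.35 elsewhere. The part of these chromosome-wide shifts in the members' values was not tested. Seen this way 76 of 78 members lay below their chromosome's median, Rpl30, Rpl31, Rpl35a and Rpl37 among them. Rpl24 is counted with them, but at -0.0016 from that median (SE of its fold change 0.16) it lay practically on it. The exceptions were 1 member each on chromosomes 7 and 8. The 4 members on chromosome X (Rpl10, Rpl36a, Rpl39 and Rps4x), whose copy number differs between the sexes, had log2 fold changes of -0.62 to -0.32, and Rpl10 passed the threshold.

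**Figure D4:**
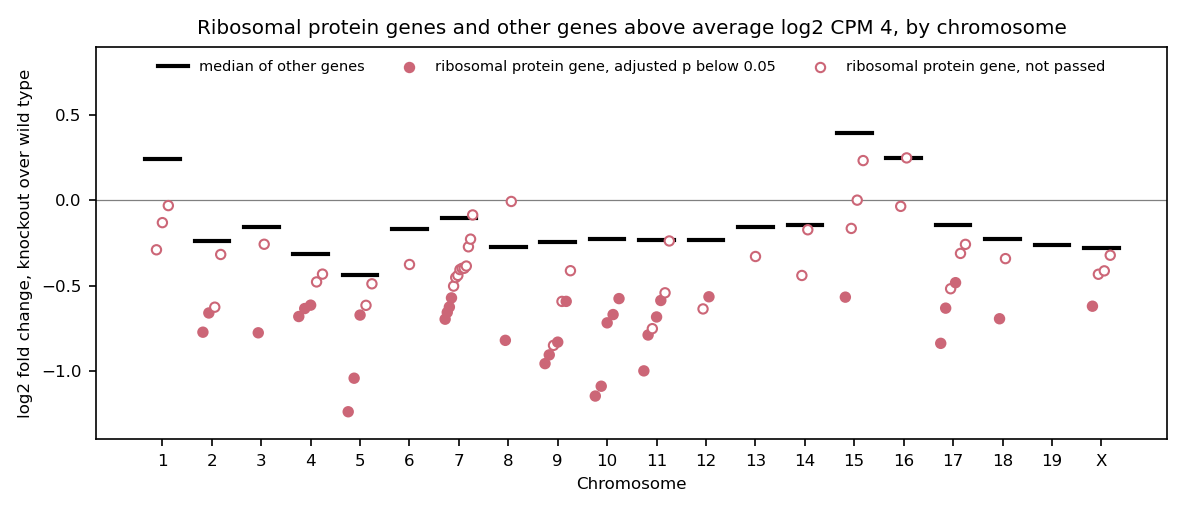
Log2 fold change (knockout over wild type) of ribosomal protein genes by chromosome, as points filled where the adjusted p was below 0.05, with the median of the other genes of that chromosome as a black bar; all genes shown or summarized are above an average log2 CPM of 4. On chromosomes 1, 15 and 16 the bars lie between 0.24 and 0.40 and the points on both sides of 0. All 9 points there have values under their bars, but that of Rpl24 lies practically on its bar.

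The promoters were read for letters that these genes are known to share. RefSeq promoter windows of 300 bases on GRCm38.p6, 250 before and 50 after the annotated start, were at hand for 61 of the 83 members. The letters CCGGAAG (or CTTCCGG on the other strand), a core bound by ETS factors, were in windows of 25 of the 61 members (41.0%) and of 9.93% of all 27025 genes with a window. AAGATGG or its reverse complement, a core of the factor YY1, was found in 9 members (14.8%, against 7.28%), and CTTTCC or its reverse complement in 32 (52.5%, against 29.3%). A stand-in for the TOP tract was a run of at least 7 C or T letters within 25 bases of the start. It was read on the strand that matches the transcript, and it can overlap CTTTCC. Such a run was in 38 members (62.3%, against 32.7%). Some genes have more than 1 window, and any of them counted. Among members with a window, CCGGAAG was present in 14 of the 26 called lower and in 11 of the other 35, and the C or T run in 15 of 26 and 23 of 35. The 6 stretches from 120 bases before to 30 bases from the start are printed 5′ to 3′ so that the members with the lowest fold changes among those called and with a window (Rplp0, Rpl41, Rpl6) can be read beside others near 0 or above (Rpl31, Rpl37, Rpl24). Capitals mark CCGGAAG on either strand and the C or T runs. Annotated starts can be off and differ between sources. In GENCODE the Rpl41 gene, on the minus strand, begins at 128549305 and the Rpl37 gene at 5116645, both outside their printed stretches. A C or T run at those 2 starts cannot be read here.
Rplp0, chr5:115559347-115559496, plus strand: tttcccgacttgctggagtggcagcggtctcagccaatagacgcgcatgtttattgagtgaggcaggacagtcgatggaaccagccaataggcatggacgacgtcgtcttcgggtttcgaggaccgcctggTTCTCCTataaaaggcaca
Rpl41, chr10:128549139-128549288, minus strand: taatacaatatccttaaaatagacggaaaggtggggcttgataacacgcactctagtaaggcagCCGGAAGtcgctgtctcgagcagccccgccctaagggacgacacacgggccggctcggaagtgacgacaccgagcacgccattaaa
Rpl6, chr5:121204381-121204530, plus strand: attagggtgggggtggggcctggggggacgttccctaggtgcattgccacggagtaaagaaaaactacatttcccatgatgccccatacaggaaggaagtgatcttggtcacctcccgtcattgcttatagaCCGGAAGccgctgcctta
Rpl31, chr1:39367731-39367880, plus strand: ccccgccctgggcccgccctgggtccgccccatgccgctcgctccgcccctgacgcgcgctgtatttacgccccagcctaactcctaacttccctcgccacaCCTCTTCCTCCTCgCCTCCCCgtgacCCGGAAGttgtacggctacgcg
Rpl37, chr15:5116493-5116642, plus strand: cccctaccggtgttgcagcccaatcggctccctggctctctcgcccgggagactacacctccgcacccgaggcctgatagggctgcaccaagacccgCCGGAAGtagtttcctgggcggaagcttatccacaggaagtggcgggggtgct
Rpl24, chr16:55966155-55966304, plus strand: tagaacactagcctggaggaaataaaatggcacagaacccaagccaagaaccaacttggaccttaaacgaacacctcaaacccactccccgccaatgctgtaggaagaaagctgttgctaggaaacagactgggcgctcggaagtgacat
The letters were found on both sides: CCGGAAG in Rpl41 and Rpl6, which were lower, and in Rpl31 and Rpl37, which lay near 0, while the printed stretches of Rplp0 and Rpl24 hold none.

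Genes that work with the ribosomal proteins shifted in part along with them. Of 8 ribosomal proteins that the name rule left out, 2 were lower (25%, beside 10.7% of all genes). All 8 fold changes were negative, with a median of -0.53. Fau, which encodes a small subunit protein fused to a ubiquitin-like one, went from 663, 690 and 709 CPM to 458, 401 and 417 CPM (log2 fold change -0.69, SE 0.16, adjusted p = 0.0149, edgeR). Of 25 other mRNAs with a TOP tract, 7 were lower (Eef2, Eef1b2, Eif3f, Eif3k, Eif3m, Snhg1 and Snhg5), with a median of -0.40 over the 25. That was 28%, beside 10.7% of all genes and 17% of genes above an average log2 CPM of 4. Eef2, the translocation factor that meets the P-stalk, was at 5343, 5058 and 5305 CPM in wild type and 2848, 2989 and 2786 CPM in knockout (-0.87, SE 0.16, adjusted p = 0.00657, edgeR), with no overlap. Others of this list did not pass, such as Tpt1 (0.20, adjusted p = 0.419), Pabpc1 (0.06, adjusted p = 0.853) and the snoRNA host gene Gas5 (0.07, adjusted p = 0.805) by the same test. Pabpc1 lies on chromosome 15 and Gas5 on chromosome 1, where other genes above an average log2 CPM of 4 had medians of 0.40 and 0.24. Tpt1 lies on chromosome 14 (median -0.14), and Eef1b2, called lower, on chromosome 1. The part of these chromosome-wide shifts in the values of this list was not tested. Of 9 dedicated chaperones, which guard new ribosomal proteins until assembly, 4 were lower (44.4%, beside 10.7% of all genes): Bccip, Ltv1, Pdcd2 and Tsr2. The median of the 9 was -0.90.

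Of 13 regulators of TOP mRNA translation, 3 were lower (23.1%, beside 10.7% of all genes), 1 was higher (beside 19.4% of all genes) and 9 did not pass. Eef2k, the kinase that inhibits the product of Eef2, was at 45.9, 44.7 and 38.7 CPM in wild type and at 189, 244 and 148 CPM in knockout (log2 fold change 2.17, SE 0.23, adjusted p = 0.000899, edgeR). Eif4ebp1 and Eif4ebp2, which encode the translation repressors released by mTORC1, were lower, from 45.1 to 77.2 CPM down to 23.3 to 28.1 CPM for Eif4ebp1 (-1.20, SE 0.25, adjusted p = 0.0108, edgeR) and by 1.06 on the log2 scale for Eif4ebp2. Larp1b, a relative of the TOP-binding Larp1, fell by 2.03, from 53.4 to 59.9 CPM in wild type to 9.80 to 21.4 CPM in knockout. Among those that did not pass were Mtor (0.11, adjusted p = 0.684) and Larp1 (-0.10, adjusted p = 0.820) by edgeR. Of 8 genes for ribosome storage, rescue and turnover, 1 was lower (12.5%, near the 10.7% of all genes), and their median was -0.04. That gene was Hbs1l (-0.62, adjusted p = 0.0279, edgeR). As with the ribosomal protein genes, the part of cell makeup in these values was not tested.

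**Figure D5:**
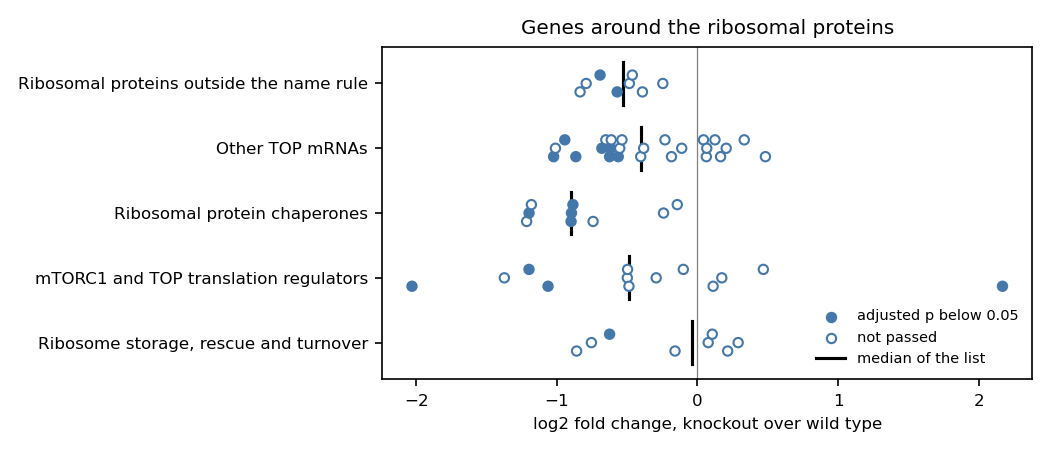
Log2 fold change (knockout over wild type) of the genes of 5 lists around the ribosomal proteins, with filled points past an adjusted p of 0.05 and the list median as a black line. Medians run from -0.90 for the chaperones to -0.04 for storage, rescue and turnover, and the outermost points are Larp1b at -2.03 and Eef2k at 2.17, both among the regulators.

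Reads from near-identical copies limit some of these values. The count table holds 307 pseudogene rows named after 62 of the members, and their counts came to 6.07% to 6.78% of the members' own counts, a similar share in each library. For some members the share was large. The largest among those named above were 127% in wild type and 113% in knockout for Rpl21, 110% and 109% for Rps12, 82.3% and 78.1% for Rps10, 78.7% and 106% for Rpl17, 40.1% and 39.0% for Rpl35a, and 35.5% and 35.2% for Rpl10. How the authors assigned such reads is not given in the sources used here. With these counts added to the members, 35 were lower in place of 34, and Rpl17, whose share differed most between the genotypes among those just listed, lost its call (adjusted p = 0.0567, edgeR) while Rpl21 gained one (adjusted p = 0.0411, edgeR).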

How the data were processed

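RNA sequencing of 6 libraries was compared by genotype, with groups and replicate numbers taken from the sample titles. The authors deposited a table of raw counts per gene, with no scaling, and the submitters' processing notes name the build GRCm38 (mm10). The aligner, counting tool, annotation and use of strand are not given in the sources used here, and the labels name an mRNA kit where the study's methods give a directional, rRNA-depleted one. Low counts piled up at multiples of 4 (values 4, 8 and 12 occurred 1.40 to 1.62 times as often as values 2, 6 and 10), so the limit of detection was set at 12 counts. Totals ran from 62141558 to 72717681 counts. For 27 rows a symbol that read as a date was replaced through its identifier.

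Differential expression was tested in edgeR 4.0.16 (R 4.3.3) by quasi-likelihood (robust estimation, filterByExpr, TMM scaling, genotype as the only term) on the deposited counts. Benjamini-Hochberg adjustment ran over the 18375 tested genes, with a threshold of 0.05. For the SE, the size of each log2 fold change was divided by the root of its F value. The procedure was tested on simulated data. Fold changes are knockout over wild type on the log2 scale. Replicate libraries differed by far more than sampling noise. Positions came from GENCODE M21, which held 55240 of the 55421 identifiers, and promoters from RefSeq on GRCm38.p6. Alternatives covered scaling, filters, DESeq2 1.42.0, the threshold, counts divided by 4, added pseudogene counts, the replicate number and each library left out.

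The members and all gene lists were chosen with earlier results of these data known, and the lists were written from general knowledge. Named members are, per direction, the 12 with the largest change past the threshold whose groups did not overlap, the 5 with the highest mean CPM, the disease and paralog lists, Rps6, Rps27a, the P-stalk and members on the X chromosome; other named members were chosen after their values were seen. Genes outside the members come from the 5 ribosome lists, the marker lists and Ddit4. The values of a few single genes are not reported here; counts and medians include them.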

Additional observations from a re-analysis of the deposited data

How the results depend on the processing

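Across the scalings, filters, tests and left-out libraries, 74 of the 81 members kept a negative fold change wherever they were tested. The fit that needed 10 counts in every library tested 80 members, of which 73 were negative. Over all fits the members' median was 0.45 to 0.73 below that of all genes. Rpl6, Rpl13, Rpl23, Rplp0, Rplp1 and Rpsa were called lower in every setting. The number of members called lower was 29 to 42 under the other scalings, 40 by the DESeq2 Wald test and 23 where every library had to hold 10 counts or more; there the members' median was -0.49 and 2341 of all genes were higher. At an adjusted p below 0.01 it was 7, with 0 members higher (1 had an unadjusted p below 0.05) and with 1964 of all genes higher and 712 lower. Leaving out a library gave 12 to 34 members lower and 0 to 1 higher, a median of -0.61 to -0.47, and 1089 to 2078 of all genes lower; 12 members were lower in each of these fits. Nothing in the labels ties same-numbered libraries together, and they did not deviate together (r = -0.259, -0.304 and -0.0345 for numbers 1, 2 and 3). With the replicate number as a block, 8 members were lower, beside 2177 genes higher and 787 lower in all; the cause was not tested.

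Of the members named, those near 0 changed sign. Rpl31 and Rpl35a were at 0.0364 and 0.0294 under upper-quartile scaling and at 0.0351 and 0.0300 with the minimum of 10 counts. Rpl37 was at -0.0601 with library totals alone, at -0.0346 without a filter and at -0.0039 with pseudogene counts added. With a library left out Rpl31 ran from -0.122 to 0.0280, Rpl35a from -0.109 to 0.0335, and Rpl37 from -0.175 to 0.136.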
